A study of Mus musculus with 75 samples.

Results

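The cervical lymph nodes of aged mice were compared with those of young mice, using the libraries that the labels list for this organ: 3 aged (mice 1, 2 and 3) and 2 young (mice 2 and 3), 5 of the 75 samples of the series. The samples come from a study of ageing across organs of C57BL/6 mice and of the choroid plexus of parabionts. The aged mice were 22 months old and the young mice 3 months old, all wild type by their titles, with no treatment listed in either group. Each animal was perfused with PBS, each node sample was snap frozen, and total RNA was taken from the whole tissue, so every value is an average over all cells in the sample. Libraries of the inguinal nodes (3 aged and 3 young) and mesenteric nodes (3 aged and 3 young) of these mice and young mouse 1 served as the nearest comparison.

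Cervical lymph nodes receive lymph from the head and neck, including fluid that drains from the brain and its coverings. Naive T cells enter a node through high endothelial venules, follow chemokines made by reticular cells into the T cell zone and leave again unless they meet their antigen. B cells collect in follicles, and those that become plasma cells settle in the medullary cords, where they secrete antibody beside sinus macrophages. With age the thymus exports fewer new T cells, and node tissue is known for holding fewer naive and more antigen-experienced lymphocytes.

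Values are the deposited signal per gene, in which 1 read was worth between 0.83 and 1.14 in these libraries. The sum of each library divided by that value gave 561985, 689682 and 514365 reads in aged mice 1, 2 and 3 and 699852 and 500500 reads in young mice 2 and 3. Defining genes of a lymph node were present in all 5 libraries. The T cell receptor chain gene Cd3e lay between 52.4 and 133, the B cell gene Ms4a1 between 100.4 and 187, the reticular cell chemokine Ccl21a between 251 and 460, and Glycam1, a ligand for homing lymphocytes on high endothelial venules, between 1367 and 3589. Genes of other organs were present too, and not in the same amount in each library. The 75 measured salivary gland genes of a list of 85 made up 10.5% and 28.4% of the signal in aged mice 1 and 2 and 5.14% in young mouse 2, but 0.0965% in aged mouse 3 and 0.0617% in young mouse 3. Bpifa2, a protein secreted into saliva, was at 26172, 70559 and 56.2 in the aged mice and at 10449 and 60.3 in the young mice. Young mouse 2 alone stood high in neuronal genes: the 26 listed hippocampus and neuron markers, all of them measured, summed to 4917 there and to between 224 and 303 elsewhere. Snap25, a protein of synaptic vesicle release, was at 128 in that library and at 0 to 1.07 in the others. A fit of this library as a mixture of organ profiles gave hippocampus a share of 30.6%, against at most 0.729% in the other libraries. The share is a rough value, since the fit had no salivary gland profile. It also did not tell node sites apart, giving aged mouse 3 a share of 85.4% for inguinal nodes. Aged mouse 1 also stood high in fat cell genes, whose 22 members summed to 4954 against 707 and 1363 in the other aged mice and 431 and 824 in the young. Ucp1, the heat-producing protein of brown fat, was at 261 in it and at 0 in the other 4 libraries. Genes of hippocampus and salivary gland were therefore set aside and counted apart. The total number of calls and the medians given for lists of node cells are reported with and without young mouse 2. So is the test of each called gene. Without it, young mouse 3 is the lone young library and is assumed to vary like the aged ones. Aged mouse 3 against young mouse 3 is the pair with the least salivary gland signal.

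**Figure D1:**
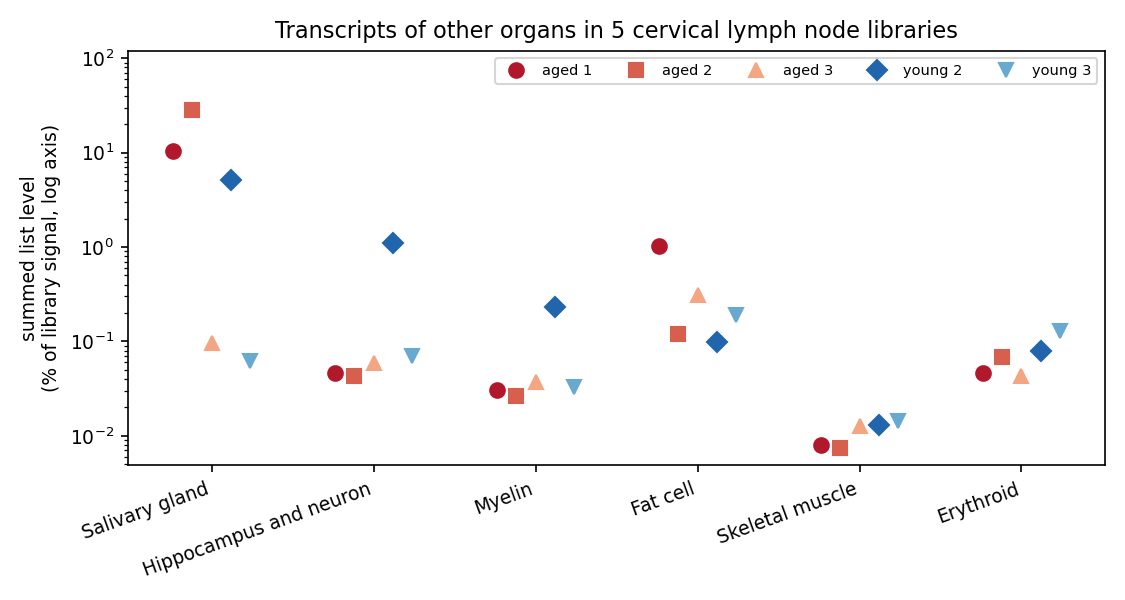
Summed level of 6 gene lists of other organs in each of the 5 cervical lymph node libraries, as a percentage of the library's signal on a log axis; each point is 1 library. Salivary gland genes reach 28.4% in aged mouse 2 and stay under 0.1% in aged mouse 3 and young mouse 3, and hippocampus markers stand out in young mouse 2.

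The comparison asked which genes differ between aged and young nodes. In aged nodes, 8 of 23 tested plasma cell genes and 2 of 6 tested mast cell and basophil genes were called higher (adjusted p under 0.05, limma). Of all genes not set aside, 0.249% were. Called lower were 2 of 19 tested naive T cell genes and 2 of 14 tested genes of the T cell receptor complex, against 0.0679% of all. The lists were drawn up with earlier results of these data known, and these counts changed when a library was left out. Jchain, the joining chain of secreted IgM and IgA, was 4.31-fold higher, and Mzb1, an endoplasmic reticulum chaperone of antibody-secreting cells, was 4.45-fold higher. Mcpt4, a chymase stored in mast cell granules, was 11.1-fold higher. Lef1, the transcription factor that maintains naive T cells, was 3.22-fold lower, and Dapl1, a transcript of naive T cells, was 15.9-fold lower. Fold and log2 changes are on the scale of log2(signal + 1.11), where 1.11 is the value of 1 read, and so understate the change of genes at low levels.

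With limma and Benjamini-Hochberg adjustment, 30 of the 10917 genes tested had an adjusted p under 0.05, which is 0.275%. Among the 8834 tested genes that were not set aside, 22 were higher (0.249%) and 6 lower (0.0679%) in aged nodes, and 567 (6.42%) and 143 (1.62%) had an unadjusted p under 0.05. The other 2 calls were set aside: Folr1, a folate receptor, at 9.98, 19.8 and 21.4 in aged and 0.83 and 0 in young nodes, and Krt18, a keratin of simple epithelia, at 18.9, 51.3 and 15.7 in aged and 3.32 and 1.14 in young nodes. In all 28 remaining genes the aged libraries did not overlap the young, against 16.0% of genes with every aged library above both young ones and 9.28% with every aged library below. Since the groups do not overlap in these genes, leaving out a library cannot turn their direction. Their smallest change was 1.248 on the log2 scale without young mouse 2, and between aged mouse 3 and young mouse 3 it was 1.02.

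The number of calls rested on single libraries. It was 8 without young mouse 2 (0.0921% of genes), of which 7 were among the 28: Dapl1, Dgka, Tpsb2, Eaf2, Mcpt4, Slpi and C130026I21Rik. It was 8, 3 and 4 without aged mouse 1, 2 or 3, and 172 without young mouse 3, whose absence leaves the library with hippocampus transcripts as the only young one. The split of 22 higher to 6 lower was 2 to 1 with quantile normalization and 4 to 4 with voom. With both young libraries, 56.7% of the genes not set aside lay above 0 on the log2 scale, and without young mouse 2 it was 47.3%. Over the 16 other settings tried, each of the 28 genes failed the test in at least 1, with a largest adjusted p between 0.172 (C130026I21Rik) and 0.922 (Pla2g2d). C130026I21Rik passed in 15 of them, Dapl1 and Mcpt4 in 13, Eaf2 in 8, Mzb1 in 5 and Lef1 and Jchain in 4. Each p-value sets a gene's change against the spread between these mice. That spread was estimated with the empirical Bayes step of limma, which borrows from other genes of similar level. Uneven transcripts of other organs can be part of it.

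**Figure D2:**
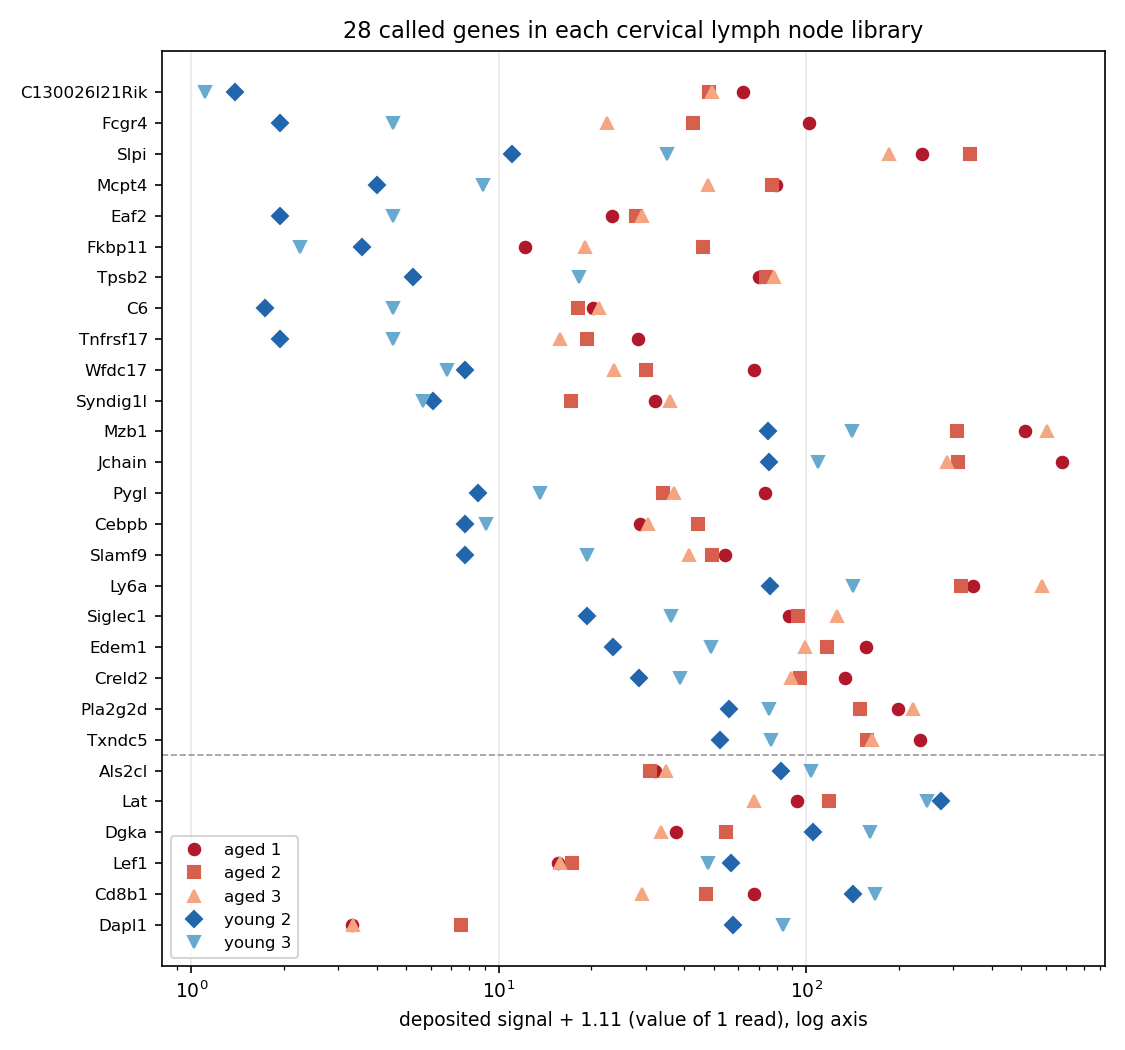
Deposited signal plus the value of 1 read (log axis) of the 28 genes with an adjusted p under 0.05 that were not set aside; each point is 1 library, aged in red shades and young in blue shades, and the dashed line parts the 6 lower from the 22 higher genes. In each row the 3 aged libraries lie on one side of the 2 young ones.

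**Figure D3:**
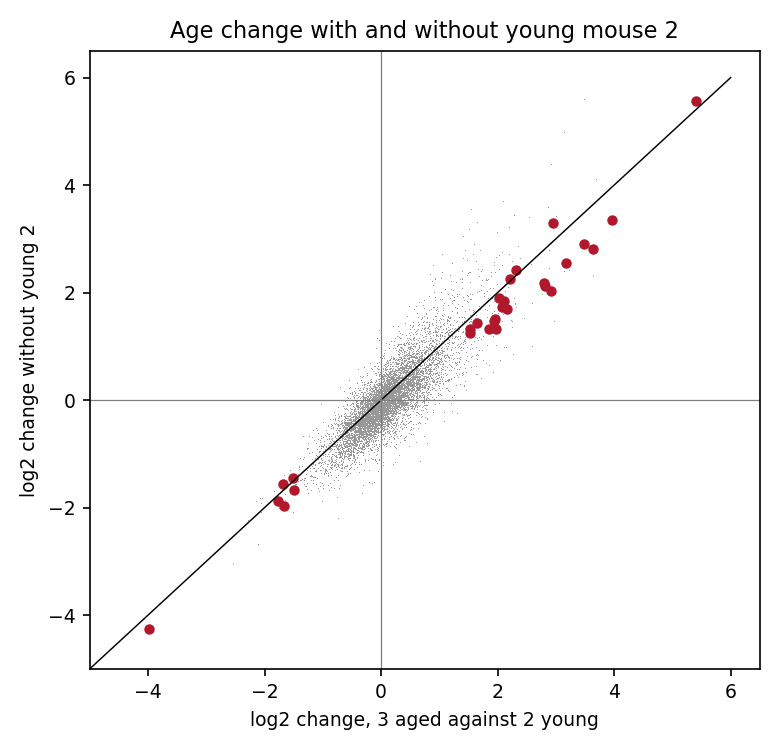
Log2 change of each gene not set aside with both young libraries (horizontal axis) and without young mouse 2 (vertical axis); grey points are single genes, red points the 28 called genes, and the line marks equal values. All 28 lie on the same side of 0 on both axes.

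The lower genes were mostly those of T cells. Dapl1 (NM_029723) was at 2.22, 6.41 and 2.25 in aged mice 1, 2 and 3 and at 56.4 and 83.1 in young mice 2 and 3 (log2 change -3.99, SE 0.47, adjusted p = 0.00124, limma; -4.26 without young mouse 2, adjusted p = 0.00828). Its level was close to the value of 2 reads in 2 of the aged libraries, and the lowest young level was far above the highest aged one. Lef1 (NM_010703) was at 14.4, 16.1 and 14.7 in aged and 55.6 and 46.8 in young nodes (log2 change -1.69, SE 0.33, adjusted p = 0.0498, limma). The aged libraries lay close together, and the call was lost without young mouse 2 (log2 change -1.56, adjusted p = 0.29, limma).

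Cd8b1 (NM_009858), the beta chain of the CD8 co-receptor of cytotoxic T cells, was at 66.6, 46.0 and 28.1 in aged and 140 and 166 in young nodes (log2 change -1.76, SE 0.34, adjusted p = 0.0476, limma). Lat (NM_010689), the membrane adaptor that relays T cell receptor signals, was at 92.1, 118 and 66.4 in aged and 273 and 246 in young nodes (log2 change -1.52, SE 0.30, adjusted p = 0.04998, limma). Dgka (NM_016811), a diacylglycerol kinase that dampens those signals, was at 36.6, 53.5 and 32.6 in aged and 104 and 160 in young nodes (log2 change -1.66, SE 0.32, adjusted p = 0.0473, limma). In each of these 3 genes the highest aged library stayed below the lower young one, and the young level was about 3 times the aged level. Als2cl (NM_001146059) was at 31.1, 29.9 and 33.7 in aged and 81.3 and 102 in young nodes (log2 change -1.50, SE 0.29, adjusted p = 0.0473, limma). Without young mouse 2, Dgka passed the test (adjusted p = 0.0422), while Cd8b1 (0.143), Lat (0.166) and Als2cl (0.113) had larger adjusted p-values with limma. In whole tissue, fewer cells of a type and less RNA per cell cannot be told apart.

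These were the only lower genes that passed. Among the next genes by p, which did not pass, were Cd8a, the alpha chain of CD8, Cd247, the zeta chain of the T cell receptor, and Tmie. Cd8a was at 25.5, 29.9 and 30.4 in aged and 64.7 and 80.8 in young nodes (log2 change -1.31, SE 0.30, adjusted p = 0.114, limma). Cd247 was at 47.7, 48.1 and 33.7 against 83.8 and 133, and Tmie at 8.87, 3.21 and 10.1 against 20.8 and 30.7. None of these 3 genes overlapped between the groups.

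Naive T cell genes as a list had 19 tested members, of which 3 lay above 0 and 16 below, with a median log2 change of -0.69, against 0.08 over all genes not set aside. Dapl1 and Lef1 passed the test and no other member did. Every aged library lay below both young ones in 10 of the 19 members (52.6%), against 9.28% of all genes not set aside. Without young mouse 2 the median was -0.87, against -0.04 over all genes. Tcf7, a partner of Lef1 in naive T cells, was at 73.2, 69.5 and 58.5 in aged and 121 and 129 in young nodes, and Satb1, a chromatin organiser of T cells, at 41.0, 51.4 and 54.0 against 79.6 and 107; neither passed (adjusted p = 0.37 and 0.384, limma). Ccr9, a gut-homing receptor, was at 4.44, 3.21 and 4.50 against 18.3 and 12.5 and did not pass either. Ccr7, the receptor for the T cell zone chemokines, was at 72.1, 112 and 142 against 145 and 221. Its highest aged library came close to the lower young one, and it did not pass (log2 change -0.77, adjusted p = 0.578, limma).

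Genes of the T cell receptor complex and its signalling had 14 tested members, 1 above 0 and 13 below, with a median of -0.95 (-1.20 without young mouse 2). Cd8b1 and Lat passed, and in 10 of the 14 (71.4%) every aged library lay below both young ones, against 9.28% of all genes not set aside. Cd5, which restrains receptor signals, was at 26.6, 20.3 and 19.1 in aged and 44.0 and 47.8 in young nodes, and the kinase Lck was at 81.0, 69.5 and 83.2 against 115 and 175. The CD3 chain gene Cd3g was at 67.3, 70.7 and 57.5 against 89.0 and 154. None of these 3 overlapped between the groups, and none passed the test (adjusted p = 0.37, 0.417 and 0.462, limma). Cd4, the co-receptor of helper T cells, was at 169, 137 and 162 in aged and 123 and 141 in young nodes, so the groups overlapped, and its log2 change was 0.24 where that of Cd8a was -1.31.

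Memory and effector T cell genes had 22 tested members, 21 above 0, with a median of 0.78 (0.51 without young mouse 2), and none passed the test. Every aged library lay above both young ones in 14 of the 22 (63.6%), against 16.0% of all genes not set aside, and 12 were higher with an unadjusted p under 0.05, against 6.42% of all. Gzmk, a granule protease of memory CD8 T cells, was at 15.5, 7.48 and 7.87 in aged nodes and listed at 0 in both young nodes (adjusted p = 0.128, limma). Eomes, a transcription factor of these cells and of NK cells, was at 17.7, 13.9 and 12.4 against 0.83 and 4.55. Ly6c2, a surface protein of memory CD8 T cells and monocytes, was at 90.4, 120 and 91.1 against 42.4 and 53.5. The aged libraries of these 3 genes were all above the young ones, with adjusted p-values of 0.128 to 0.249 (limma). Among 15 exhaustion and follicular helper genes, 11 lay above 0, with a median of 0.54 (0.71 without young mouse 2), and none passed. Pdcd1, the inhibitory receptor PD-1, was at 17.7, 25.7 and 47.2 against 9.96 and 9.11, and Maf, a transcription factor of follicular helper cells, at 79.9, 108 and 94.5 against 40.8 and 42.2. Tigit, another inhibitory receptor, was at 10.3, 4.28 and 10.1 against 1.87 and 1.14. Regulatory T cell genes had 5 of 10 tested members above 0 and a median of -0.03, but 2 above 0 and a median of -0.49 without young mouse 2, and 7 above 0 and a median of 0.50 without young mouse 3. None passed, and Foxp3, their defining factor, was at 11.1, 8.55 and 6.75 in aged and 14.9 and 9.11 in young nodes, with the groups overlapping.

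Plasma cell genes made up the largest listed group of higher genes: 8 of the 23 tested plasma cell genes passed, all higher in aged nodes, and 22 of the 23 lay above 0. Their median log2 change was 1.65 (1.32 without young mouse 2, and 1.18 between aged mouse 3 and young mouse 3), against 0.08 over all genes not set aside. Every aged library lay above both young ones in 18 of the 23 (78.3%), against 16.0% of all genes not set aside, of which 0.249% passed the test in this direction. The list was drawn up with earlier results of these data known. The number that passed was 1 without young mouse 2, 2 without aged mouse 1, 0 without aged mouse 2 or aged mouse 3, and 15 without young mouse 3.

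The proteins of secretory cells that fold antibody in the endoplasmic reticulum include several whose genes carry stress response elements in their promoters, the sites through which the unfolded protein response raises their transcription. Promoters are shown here for plasma cell genes chosen among those whose promoter held a match. They are Creld2 and Txndc5, which passed the test, and Derl3, the plasma cell gene nearest to the threshold. No match was found for any other called plasma cell gene, and not all of them had a promoter to search. They are RefSeq promoters on build GRCm38.p6, from 250 bases before to 50 bases after the start of the gene, at chr15:88819396-88819695 (plus strand) for Creld2, chr10:75893148-75893447 (plus strand) for Derl3 and chr13:38527865-38528164 (minus strand) for Txndc5. Capitals mark the ER stress response element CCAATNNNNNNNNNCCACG, which reads on the opposite strand in Creld2 and Derl3, and the core TGACGTGG of the unfolded protein response element in Txndc5.
Creld2: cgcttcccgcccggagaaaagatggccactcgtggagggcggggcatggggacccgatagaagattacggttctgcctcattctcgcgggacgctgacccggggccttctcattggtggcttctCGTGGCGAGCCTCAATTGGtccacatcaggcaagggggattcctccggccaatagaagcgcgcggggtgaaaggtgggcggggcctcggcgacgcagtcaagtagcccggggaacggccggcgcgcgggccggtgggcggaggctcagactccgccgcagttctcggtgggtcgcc
Derl3: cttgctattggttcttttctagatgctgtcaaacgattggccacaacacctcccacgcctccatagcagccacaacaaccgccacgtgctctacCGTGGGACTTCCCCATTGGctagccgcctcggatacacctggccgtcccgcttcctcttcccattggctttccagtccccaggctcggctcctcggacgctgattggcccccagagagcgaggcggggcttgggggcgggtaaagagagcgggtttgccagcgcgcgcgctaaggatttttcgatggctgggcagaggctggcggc
Txndc5: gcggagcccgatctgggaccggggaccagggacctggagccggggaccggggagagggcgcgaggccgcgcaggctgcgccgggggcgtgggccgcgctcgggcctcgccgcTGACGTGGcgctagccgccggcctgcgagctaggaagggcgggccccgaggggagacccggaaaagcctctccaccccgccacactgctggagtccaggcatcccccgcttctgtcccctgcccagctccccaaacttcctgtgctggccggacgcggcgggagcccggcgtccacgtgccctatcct
The first base of the marked stretch lay 126 bases before the start in Creld2, 156 in Derl3 and 138 in Txndc5. Searched on both strands, the ER stress response element was found in 39 of 32851 RefSeq promoters (0.119%), and in 2 of the 20 plasma cell genes with a promoter in the table, Derl3 and Creld2. The shorter core was found in 222 promoters (0.676%), and in 2 of the 20 plasma cell genes, Pou2af1 and Txndc5. The 2 motifs overlap in their letters CCACG, read on either strand. Among 20 genes of ER chaperones and secretion the longer element was found in 6 (Hspa5, Calr, Hsp90b1, Canx, Pdia6 and Dnajc3) and the shorter in 0. A match is a run of letters, not a measured site.

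Mzb1 (NM_027222) was at 512, 307 and 604 in aged and 73.8 and 140 in young nodes (log2 change 2.15, SE 0.35, adjusted p = 0.0421, limma). The aged mean was 474 ± 152 (SD, n = 3), and the lowest aged library was more than double the higher young one. Jchain (NM_152839) was at 677, 310 and 286 in aged and 74.7 and 108 in young nodes (log2 change 2.11, SE 0.37, adjusted p = 0.0473, limma). Aged mouse 1 was highest for Jchain and aged mouse 3 for Mzb1. Without young mouse 2, neither passed: the log2 change was 1.70 for Mzb1 (adjusted p = 0.102) and 1.85 for Jchain (adjusted p = 0.355), with limma.

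Tnfrsf17 (NM_011608), the receptor BCMA that keeps plasma cells alive, was at 27.2, 18.2 and 14.7 in aged and 0.83 and 3.41 in young nodes (log2 change 2.79, SE 0.53, adjusted p = 0.0473, limma). Eaf2 (NM_001113401), a partner of the ELL elongation factors, was at 22.2, 26.7 and 28.1 against 0.83 and 3.41 (log2 change 3.17, SE 0.49, adjusted p = 0.0219, limma; 0.0422 without young mouse 2). The young levels of both genes amount to 1 read in young mouse 2 and 3 reads in young mouse 3. Fkbp11 (NM_024169), a prolyl isomerase of secretory cells, was at 11.1, 44.9 and 17.997 against 2.49 and 1.14 (log2 change 2.96, SE 0.58, adjusted p = 0.0476, limma), so aged mouse 2 stood above the other aged mice. That library also held the most salivary gland signal, and the part of that signal in the value was not tested. Between aged mouse 3 and young mouse 3 the log2 change of Fkbp11 was 3.09. In that pair each other called plasma cell gene changed less than in the main fit. The log2 change was 2.10 for Mzb1, 1.39 for Jchain, 1.81 for Tnfrsf17, 2.69 for Eaf2, 1.09 for Txndc5, 1.02 for Edem1 and 1.20 for Creld2. The adjusted p without young mouse 2 was 0.172 for Tnfrsf17 and 0.102 for Fkbp11, with limma.

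Of the folding and quality control genes, Txndc5 (NM_145367), a disulfide isomerase, was at 233, 156 and 162 in aged and 51.4 and 75.5 in young nodes (log2 change 1.52, SE 0.30, adjusted p = 0.04998, limma). Edem1 (NM_138677), which sends misfolded glycoproteins to degradation, was at 155, 116 and 97.9 against 22.4 and 47.8, and Creld2 (NM_029720), an ER stress-inducible chaperone, was at 132, 94.1 and 87.7 against 27.4 and 37.6. Their log2 changes were 1.84 and 1.65, both with an adjusted p of 0.0473 (limma). None of the 3 passed without young mouse 2, with adjusted p-values of 0.194 for Txndc5, 0.194 for Edem1 and 0.166 for Creld2 (limma). In all 3 genes the lowest aged library was more than double the higher young one. Derl3, a channel component of the same degradation route, was at 69.9, 85.5 and 33.7 against 2.49 and 10.2 and just missed the threshold (log2 change 3.23, SE 0.54, adjusted p = 0.0503, limma). Its highest value was in aged mouse 2, the library with the most salivary gland signal, and the part of that signal in it was not tested.

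The transcription factors of plasma cells did not pass the test. Xbp1, which builds the secretory apparatus, was at 125, 102 and 93.4 in aged and 40.7 and 42.1 in young nodes (log2 change 1.33, SE 0.28, adjusted p = 0.0737, limma). Irf4 was at 61.0, 65.2 and 76.5 against 24.9 and 41.0, and Prdm1, the regulator that ends the B cell programme, at 4.44, 6.41 and 3.37 in aged nodes and listed at 0 in both young nodes. Sdc1, the surface syndecan that marks plasma cells, was at 32.5, 44.4 and 25.5 against 8.71 and 13.7 (adjusted p = 0.169, limma). The groups did not overlap in any of these 4 genes. Bhlha15 was the member below 0, at 33.3, 80.2 and 27.0 against 51.4 and 43.3, and the groups overlapped. It is a factor of secretory gland cells as well as plasma cells, and its highest value was in aged mouse 2, the library with the most salivary gland signal.

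The list of ER chaperones and secretion genes had 22 of 23 tested members above 0, and none passed. Their median was 0.62 (0.56 without young mouse 2, and 0.30 between aged mouse 3 and young mouse 3). Hspa5, the chaperone BiP, was at 702, 628 and 791 in aged and 348 and 486 in young nodes (log2 change 0.77, adjusted p = 0.462, limma). Pdia4 was at 180, 121 and 172 against 68.1 and 75.3, and Herpud1 at 112, 148 and 107 against 54.8 and 67.2. The groups did not overlap in these 3 genes, and their differences were smaller than those of Creld2 and Edem1. Hsp90b1 was at 1523, 1149 and 754 against 562 and 611.

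Genes of B cells other than plasma cells did not pass the test. Of 19 tested B cell identity genes 16 lay above 0 with both young libraries, with a median of 0.25, but 7 without young mouse 2, with a median of -0.06, and none passed. Ms4a1, a surface protein of B cells, was at 153, 187 and 156 in aged and 100.4 and 166 in young nodes, and the groups overlapped. Among 14 tested genes of age-associated B cells 13 lay above 0 (11 without young mouse 2), with a median of 0.42 (0.30 without it), and none passed. Itgax, the integrin CD11c of these cells and of dendritic cells, was at 32.2, 31.0 and 47.2 against 14.9 and 17.1 (adjusted p = 0.359, limma). Tbx21, their transcription factor and that of effector T cells, was at 12.2, 12.8 and 21.4 against 4.15 and 6.83. Germinal centre genes had 8 tested members, all above 0, with a median of 0.50 (0.19 without young mouse 2), and none passed; Bcl6, their master regulator, was at 28.8, 20.4 and 30.4 against 23.2 and 25.04, with the groups overlapping.

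**Figure D4:**
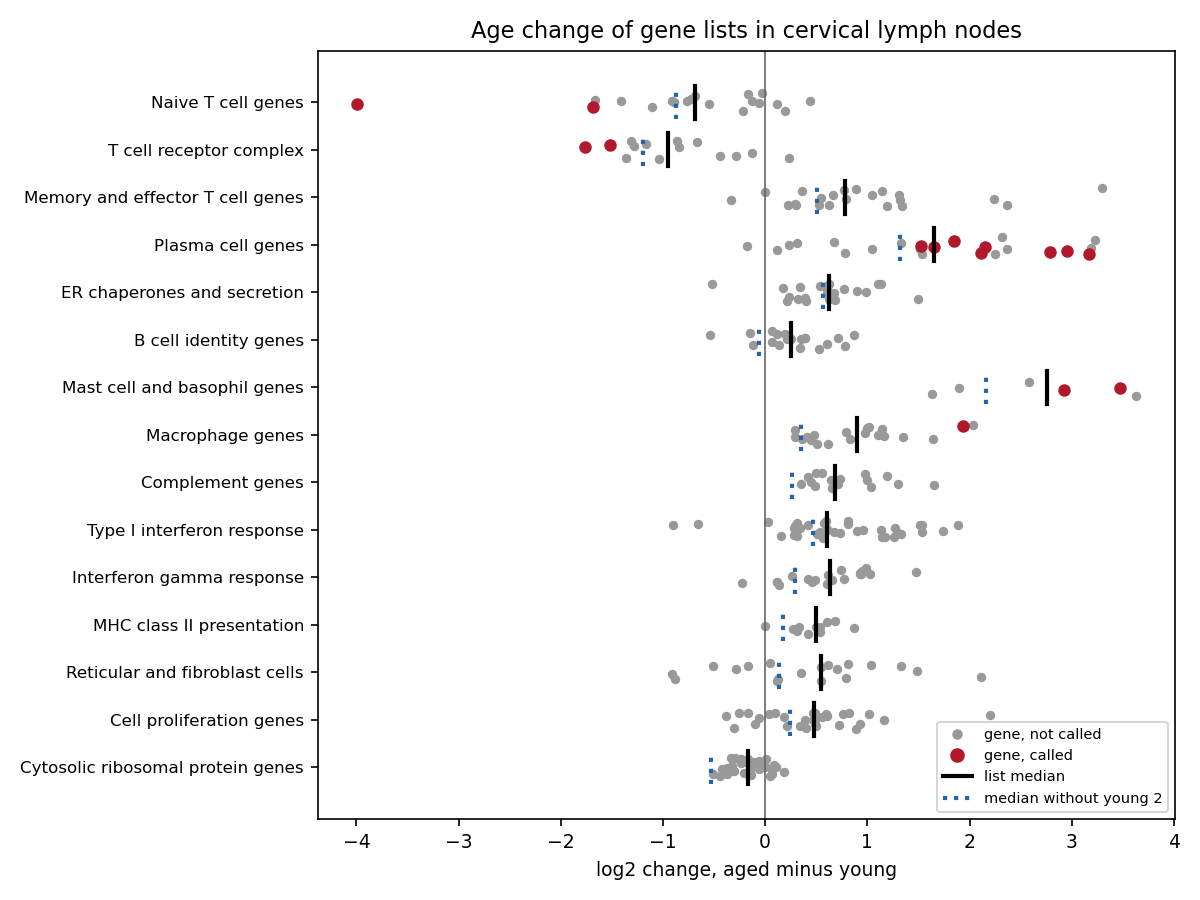
Log2 change with age of the tested members of 15 gene lists, genes set aside left out; each point is 1 gene, red where its adjusted p was under 0.05, with the list's median as a black bar and its median without young mouse 2 as a blue dotted bar. Plasma cell and mast cell genes lie farthest to the right, and T cell receptor and naive T cell genes to the left.

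Mast cells store proteases and amines in granules and lie in the capsule and sinuses of nodes. All 6 tested mast cell and basophil genes lay above 0, with a median of 2.75 (2.16 without young mouse 2). Of these, 2 passed, against 0.249% of all genes not set aside that passed in this direction. The number that passed was 1 without aged mouse 1, aged mouse 2 or aged mouse 3. It was higher without either young mouse, but a single young library leaves no spread between young mice to test against. Mcpt4 (NM_010779) was at 78.6, 76.1 and 46.7 in aged and 2.90 and 7.78 in young nodes (log2 change 3.48, SE 0.40, adjusted p = 0.00124, limma; 2.90 and 0.00387 without young mouse 2). Tpsb2 (NM_010781), a mast cell tryptase, was at 68.8, 72.7 and 77.6 against 4.15 and 17.1 (log2 change 2.92, SE 0.45, adjusted p = 0.0421, limma; 2.03 and 0.0206 without young mouse 2). The aged libraries lay close together in Tpsb2, while in Mcpt4 aged mouse 3 was lower than the other aged mice, and the groups did not overlap in either gene. Cma1, another chymase, was at 54.4, 78.0 and 50.6 against 0.83 and 11.4 (adjusted p = 0.258, limma), and Cpa3, a carboxypeptidase of the granules, at 17.7, 28.9 and 13.5 against 0 and 9.11 (adjusted p = 0.497, limma). The 2 young mice differed from each other by more in Cma1 than in Mcpt4, and no aged library reached down to the young ones in either gene.

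All 20 tested macrophage genes lay above 0, 17 of them without young mouse 2. Their median was 0.90 with both young libraries and 0.35 without young mouse 2. Of the 20 genes 1 passed, against 0.249% of all genes not set aside that passed in this direction. The number that passed was 1 without aged mouse 1 and 0 without aged mouse 2 or aged mouse 3. It rose only where young mouse 2, the library with hippocampus transcripts, was the lone young one. Siglec1 (NM_011426), the sialic acid receptor of macrophages that line the subcapsular sinus, was at 86.5, 93.0 and 125 in aged and 18.3 and 35.3 in young nodes (log2 change 1.93, SE 0.33, adjusted p = 0.0421, limma). Without young mouse 2 its change was 1.48 and it did not pass (adjusted p = 0.143, limma). Cd68, a lysosomal protein of macrophages, was at 91.0, 77.0 and 95.6 against 22.4 and 50.1, and Marco, a scavenger receptor of medullary macrophages, at 517, 413 and 605 against 136 and 402. Young mouse 2 was the lower of the young mice in all 3 genes, and in Marco young mouse 3 came close to aged mouse 2.

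Other called genes stood on none of the lists. Fcgr4 (NM_144559), an activating receptor for IgG on monocytes and macrophages, was at 101, 41.7 and 21.4 in aged and 0.83 and 3.41 in young nodes (log2 change 3.96, SE 0.63, adjusted p = 0.0473, limma). Its aged values spread over more than a factor of 4, with aged mouse 1 highest. Slpi (NM_011414), a secreted inhibitor of neutrophil proteases, was at 237, 340 and 184 against 9.96 and 34.1 (log2 change 3.65, SE 0.49, adjusted p = 0.0473, limma; 2.81 and 0.00127 without young mouse 2). The lowest aged library was more than 5 times the higher young one. The highest value was in aged mouse 2, which also held the most salivary gland signal, and the part of that signal in the value was not tested. Between aged mouse 3 and young mouse 3 the log2 change of Slpi was 2.40. Wfdc17 (NM_001081957), a related small secreted protein of macrophages, was at 66.6, 28.9 and 22.5 against 6.64 and 5.69 (log2 change 2.32), and Cebpb (NM_009883), a transcription factor of myeloid cells, at 27.7, 43.4 and 29.5 against 6.64 and 7.97 (log2 change 2.02).

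Pla2g2d (NM_011109), a secreted phospholipase of lymphoid dendritic cells, was at 198, 149 and 220 in aged and 54.8 and 74.3 in young nodes (log2 change 1.53, SE 0.29, adjusted p = 0.0473, limma). Slamf9 (NM_029612), a SLAM family receptor, was at 53.2, 48.1 and 40.5 against 6.64 and 18.2 (log2 change 1.98), and Ly6a (NM_010738), the antigen Sca-1, was at 346, 318 and 584 against 75.1 and 141 (log2 change 1.95). C6 (NM_016704), a component of the membrane attack complex, was at 19.1, 16.9 and 20.1 against 0.62 and 3.41 (log2 change 2.82). The aged values of C6 lay close together, and its young values were at most those of 3 reads. Pygl (NM_133198), a glycogen phosphorylase, was at 72.1, 33.1 and 36.0 against 7.47 and 12.5, and Syndig1l (NM_001033334) at 31.1, 16.0 and 34.9 against 4.98 and 4.55. Of these 10 unlisted genes, Slpi alone passed without young mouse 2, and the adjusted p of Fcgr4 was then 0.306 (limma).

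C130026I21Rik (NM_001037909) had the largest change of all called genes. It was at 60.9, 47.0 and 48.2 in aged nodes, at 0.277 in young mouse 2 and listed at 0 in young mouse 3 (log2 change 5.41, SE 0.43, adjusted p = 1.94e-05, limma; 5.57 without young mouse 2). The value in young mouse 2 was less than 1 read, so it holds part of a read, and reads that fit near-identical copies may be split among them. Since the young nodes were at or near 0, its log2 change rests on the pseudocount and ran from 3.62 to 7.05 over the settings tried. The aged libraries lay close together and far from the young ones.

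The list of complement genes, which does not hold C6, had 16 tested members, all above 0 with both young libraries and 13 above 0 without young mouse 2, and none of the 16 passed. Their median was 0.68 (0.27 without young mouse 2). C1qa, a chain of the first component made by macrophages, was at 1165, 704 and 1243 in aged and 280 and 591 in young nodes (log2 change 1.30, adjusted p = 0.274, limma), and C1qc was at 375, 226 and 224 against 96.2 and 139. Of 16 tested dendritic cell genes 12 lay above 0, with a median of 0.51, but 7 without young mouse 2, with a median of -0.16, and none passed. Of 10 tested neutrophil genes 8 lay above 0 with and without young mouse 2, and none passed. Their median was 1.12 (0.86 without young mouse 2, and 0.27 between aged mouse 3 and young mouse 3). Every aged library lay above both young ones in 4 of the 10, against 16.0% of all genes not set aside. S100a8, a calcium-binding protein abundant in neutrophils, was at 33.3, 69.5 and 42.7 against 14.9 and 20.5, and S100a9, its partner, at 82.1, 81.3 and 52.9 against 29.0 and 37.6. Both were higher in every aged library, but the summed list was not. Its 15 measured members made up 0.144%, 0.129% and 0.115% of the signal in aged mice 1, 2 and 3. In young mice 2 and 3 they made up 0.123% and 0.175%, so the groups overlapped. Of 6 tested NK cell genes 5 lay above 0, with a median of 1.16, but 3 without young mouse 2, with a median of 0.68, and none passed; the activating receptor gene Klrk1 was at 29.9, 23.5 and 25.9 against 5.81 and 9.11 (log2 change 1.71, adjusted p = 0.119, limma).

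The study's question concerned interferon in ageing, so interferon genes were read at length. Of 38 tested genes of the type I interferon response 36 lay above 0, with a median of 0.60 (0.47 without young mouse 2, and 0.96 between aged mouse 3 and young mouse 3), and none passed the test. Every aged library lay above both young ones in 19 of the 38, against 16.0% of all genes not set aside. The level differed widely among the aged mice, with aged mouse 3 highest in each of the genes named here. Isg15, a ubiquitin-like protein, was at 45.5, 22.4 and 152 in aged and 9.96 and 23.3 in young nodes, so aged mouse 2 stood below young mouse 3 (log2 change 1.75, SE 0.95, adjusted p = 0.752, limma). Ifit3 was at 17.2, 18.7 and 67.5 against 9.96 and 4.55, and Oasl2 at 11.1, 9.62 and 29.2 against 4.15 and 4.55. Both genes, whose products act against viral RNA, were about equal in aged mice 1 and 2 and about 3 to 4 times higher in aged mouse 3.

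Irf7, the factor that amplifies the interferon response, was at 101, 65.2 and 119 in aged and 24.9 and 56.9 in young nodes (log2 change 1.27, adjusted p = 0.354, limma). Ifit1 was at 9.98, 10.7 and 28.1 against 9.26 and 13.7, with overlap, and its log2 change of 0.34 was -0.11 without aged mouse 3. Bst2, which tethers budding virus, was at 187, 128 and 422 against 67.2 and 143, and Ifitm3, which blocks viral entry, at 144, 123 and 188 against 80.7 and 125. In both genes aged mouse 2 lay below young mouse 3. Ifnb1, a type I interferon, was listed at 0 in all 5 libraries. Ifng, the interferon of T and NK cells, was at 2.22, 5.35 and 1.12 in aged nodes and listed at 0 in both young nodes, which is at most 5 reads in any library.

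Of 20 tested genes of the interferon gamma response 19 lay above 0, with a median of 0.63 (0.29 without young mouse 2), and none passed. Of 16 tested genes of MHC class I and the immunoproteasome 15 lay above 0 with a median of 0.48, and 11 without young mouse 2 with a median of 0.13. Of 11 tested genes of MHC class II presentation all 11 lay above 0 with a median of 0.50, and 8 without young mouse 2 with a median of 0.18. None passed. H2-Ab1, the beta chain of a class II molecule, was at 974.97, 977 and 1206 in aged and 522 and 627 in young nodes (log2 change 0.87, adjusted p = 0.372, limma). H2-Eb1 was at 989, 857 and 1098 against 551 and 673. In both genes the aged libraries lay above the young ones.

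No gene on the lists for the scaffold of the node passed the test, among 18 stromal chemokine genes, 19 reticular and fibroblast genes, 27 collagen and matrix genes, 18 vessel genes and 12 lymphatic endothelial genes. Ccl19, the T cell zone chemokine, was at 59.8, 66.9 and 84.4 in aged and 34.1 and 60.5 in young nodes, and Cxcl13, which draws B cells to follicles, at 174, 167 and 121 against 105 and 110. In Ccl19 aged mouse 1 was level with young mouse 3. Glycam1 was at 1683, 1367 and 2604 against 2436 and 3589 (log2 change -0.70, adjusted p = 0.608, limma), so aged mouse 3 lay between the young mice. Ccl8, a monocyte chemokine, was at 424, 182 and 312 against 49.8 and 123 (log2 change 1.87, adjusted p = 0.244, limma), and Ccl4 at 14.4, 10.7 and 11.2 against 0 and 2.28. The aged libraries of both lay above the young ones. Flt4, the growth factor receptor of lymphatic vessels, was at 15.5, 24.6 and 41.6 against 7.47 and 6.83 (adjusted p = 0.204, limma).

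Of 30 tested proliferation genes 24 lay above 0, with a median of 0.48 (0.25 without young mouse 2), and none passed. Cytosolic ribosomal protein genes had 9 of 39 members above 0, with a median of -0.16. Without young mouse 2 none of the 39 lay above 0, and the median was -0.53, so each of them was higher in young mouse 3 than in the mean of the aged mice. Fat cell genes had 18 of 19 tested members above 0 and a median of 1.46 (0.72 without young mouse 2), and none passed. Lpl, the lipoprotein lipase of fat cells and macrophages, was at 68.8, 31.0 and 67.5 in aged and 12.4 and 15.9 in young nodes (log2 change 1.82, adjusted p = 0.0649, limma). Fat cell genes stood highest in aged mouse 1, and their part in the macrophage values was not tested.

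The inguinal and mesenteric nodes of these mice were used to ask whether the cervical nodes differed with age in their own way. The contrast of the cervical age difference with the mean of the other 2 sites, fitted with limma over 17 libraries with the mouse as a term, called none of 12726 genes (0.0%) after Benjamini-Hochberg adjustment. The smallest adjusted p was 0.9998, and 439 genes had an unadjusted p under 0.05; with voom none was called and 717 had an unadjusted p under 0.05. No gene can therefore be named as particular to the cervical nodes. Among the 28 called genes, Fkbp11 (difference 2.30, SE 0.85, unadjusted p = 0.0159) and C6 (difference 2.40, SE 1.02, unadjusted p = 0.0337) had an unadjusted p under 0.05 in that limma contrast.

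Fitted alone, the inguinal nodes had 0 calls among 11278 genes (0.0%) with limma, and the mesenteric nodes 7 among 10916 (0.0641%). Of the 28 genes, 25 had the same sign in inguinal nodes, and 26 of the 27 tested had it in mesenteric nodes, but the animals are largely the same and these counts are not an independent check. The sites also had libraries that stood apart: Cd3e was at 10.1 in the inguinal nodes of aged mouse 3, against 68.3 to 123 in the other inguinal samples, and Ms4a1 at 36.4 in the mesenteric nodes of young mouse 2, against 114 to 333 in the other mesenteric ones. In the inguinal nodes of aged mouse 3, Ccl21a was at 4.20, against 258 to 391 in the other inguinal samples. Adipoq, a fat cell gene, was at 1917 there, against 9.30 to 211. The last aged inguinal value of each gene below comes from that library.

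The genes C130026I21Rik and Dapl1 were the 2 of the 28 that also passed in mesenteric nodes. C130026I21Rik was at 41.1, 39.9 and 42.5 in aged and 3.15, 0.81 and 3.10 in young inguinal nodes, and at 128, 58.4 and 59.7 in aged and 1.2485, 1.05 and 0.98 in young mesenteric nodes. Its aged level was thus far above its young level at all 3 sites. Dapl1 was at 5.95, 9.17 and 0 in aged and 71.3, 48.8 and 50.5 in young inguinal nodes, and at 6.28, 12.8 and 4.70 against 73.0, 31.1 and 45.8 in mesenteric nodes (adjusted p = 0.0438, limma). In no library of an aged mouse did it reach the lowest young value.

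Lef1 was at 13.4, 17.3 and 0 in aged and 47.2, 51.4 and 39.8 in young inguinal nodes, and at 7.18, 25.8 and 19.96 against 60.0, 68.6 and 35.1 in mesenteric nodes. The aged values lay below the young ones at each site, although Lef1 did not pass outside the cervical nodes. Mzb1 was at 263, 194 and 40.3 in aged and 88.0, 202 and 69.1 in young inguinal nodes, where the groups overlapped, and at 954, 464 and 257 against 176, 51.7 and 201 in mesenteric nodes, where they did not. Slpi was at 23.8, 379 and 195 in aged and 4.55, 77.3 and 17.3 in young inguinal nodes, with overlap, and at 430, 268 and 166 against 31.8, 29.0 and 98.5 in mesenteric nodes. Mcpt4 was at 139, 85.4 and 8.11 against 13.7, 5.29 and 21.0 in inguinal nodes, where the groups overlapped only through aged mouse 3. It was between 0 and 15.8 in all mesenteric libraries.

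**Figure D5:**
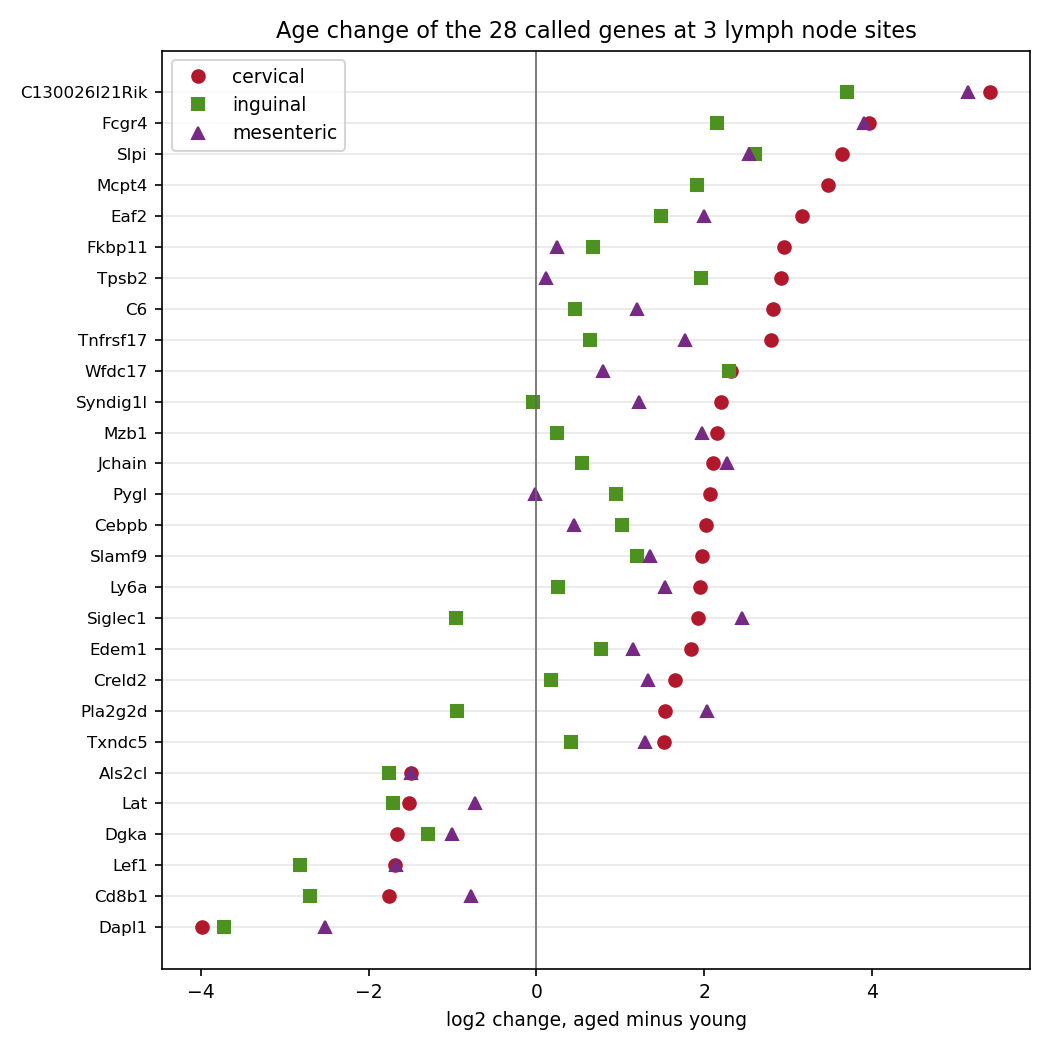
Log2 change with age of the 28 called genes in cervical (circles), inguinal (squares) and mesenteric (triangles) lymph nodes, each fitted alone; Mcpt4 was not tested in mesenteric nodes. The 6 lower genes lie left of 0 at all 3 sites, Siglec1 and Pla2g2d lie left of 0 in inguinal nodes, and Syndig1l (inguinal) and Pygl (mesenteric) lie just left of 0.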

How the data were processed

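Total RNA of excised lymph nodes was purified with the miRNeasy kit, per the labels' protocols, and the submitters' processing notes name TopHat and the build mm9. The counting step is not given in the sources used here, nor is the scaling. Values were deposited as a signal: by their steps, reads per RefSeq transcript divided by a factor for each library, with shares of reads, since 80.6% to 82.5% of the cervical values above 0 were whole multiples of the value of 1 read within 0.001. Of 25865 transcripts, 25311 were named by accession, 366 by symbol and 188 kept their name, and the transcript with the highest mean stood for each of 20623 genes. The table held 1 column of no listed sample, which was not used.

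Genes were tested in R 4.3.3 by limma 3.58.1, with the trend and robust options of its empirical Bayes step. The test used log2(signal + 1.11) where at least 2 libraries exceeded 4 times that pseudocount, with Benjamini-Hochberg adjustment and a threshold of 0.05. The fit was also run on simulated libraries that differed only by known changes and random noise. That run does not show how well the calls hold in these libraries, whose transcripts of other organs are uneven. Set aside were the listed salivary gland genes and genes whose hippocampus mean was over 2 times their mean in inguinal and mesenteric nodes of the mice other than young mouse 2 (2083 of the genes tested). Organ shares came from a non-negative fit to organ profiles of other mice. Named were the 10 higher and 10 lower called genes with the largest change, filled up by p, list members with the smallest p, and fixed interferon, chemokine and marker genes; other names were chosen after their values were seen. The members, lists and tests were chosen with earlier results of these data known. Some genes that this rule names are left out of the text.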

Additional observations from a re-analysis of the deposited data

How the results depend on the processing

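All 28 called genes had the same direction in each of the 16 settings, which for leaving out a library follows from groups that do not overlap, while the number of calls did not hold. Against 28 calls (22 higher, 6 lower), leaving out 1 library at a time gave 3 to 172 (2 to 166 higher, 1 to 6 lower). A pseudocount of 0.25 of a read gave 4 (3 and 1), no filter 1 (1 and 0), quantile normalization 3 (2 and 1), no mean-variance trend 1 (1 and 0), voom 8 (4 and 4) and a fit of the 3 node sites together 1 (1 and 0). Upper-quartile scaling over genes not set aside, chosen after seeing the data, gave 19 (14 and 5). The cause was not tested. Voom moved the median log2 change of all tested genes to -0.22, from 0.01. With a replicate block the fit gave 3 calls (2 higher, 1 lower); the numbers name different animals of each age, and the deviations of same-numbered mice correlated at 0.0959 and 0.126 over genes, so they were not treated as pairs. Some genes that were not called changed sign when 1 library was left out: Bhlha15 ran from -0.64 to 0.13 (positive without aged mouse 3), Ifit1 from -0.11 (without aged mouse 3) to 0.59 and Ms4a1 from -0.012 (without young mouse 2) to 0.71. Ms4a1 was also negative between aged mouse 3 and young mouse 3 (-0.087). The contrast between sites gave 0 calls among genes not set aside in each setting run. With 500500 to 699852 reads per library, genes at a few reads in young nodes, such as Eaf2, C6 and Tnfrsf17, have imprecise changes.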
